A study of Rattus norvegicus with 9 samples.

Results

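The superoxide dismutases Sod1, Sod2 and Sod3, catalase (Cat), the glutathione peroxidases Gpx1, Gpx3 and Gpx4, and the peroxiredoxins Prdx1, Prdx3 and Prdx6 were followed in rat liver 24 h after acute total-body irradiation (TBI). These 10 genes were chosen by name, as the enzymes that remove superoxide and peroxides, out of 13438 genes that the probes' RefSeq accessions named on the array. They were covered by 12 probes, with 2 probes each for Sod1 and Gpx1. All 12 probes were well above background in all 9 rats, and no spot was saturated.

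The animals were male Wistar rats in 3 groups of 3, with 1 liver and 1 one-colour array per rat, and their age is not given in the sources used here. Control rats were not irradiated. TBI rats received 6.5 Gy of gamma rays from a cobalt source, and HSC + TBI rats received the same exposure after 3 days of intragastric Hong Shan Capsule (HSC), a Chinese medicine made from several herbs. Its dose is written as 10 g/kg/day in one description of the series and as 30 mg/kg/day in another, so no dose is assigned here. There was no group given HSC without irradiation. The comparisons ask which of these enzymes differed in transcript level after TBI, and whether the level differed when HSC had been given first.

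Ionizing radiation splits water and leaves superoxide and hydrogen peroxide behind it, and damaged mitochondria and activated phagocytes add more. Superoxide dismutases turn superoxide into hydrogen peroxide. Catalase in peroxisomes, glutathione peroxidases and peroxiredoxins then turn the peroxide into water, the peroxidases and peroxiredoxins at the expense of glutathione or thioredoxin. Hepatocytes are known to be rich in all 3 kinds of enzyme.

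Levels are log2 signals after quantile normalization, and a step of 1 is a doubling. Values of different probes are not set against each other, because each probe has its own brightness. A difference was called when limma's Benjamini-Hochberg adjusted p over 25369 tested probes was under 0.05 and the change was at least 1.5-fold, which is 0.585 on the log2 scale. With 3 rats against 3, an exact two-sided permutation test has 20 arrangements and cannot go below p = 0.1. Arrays held 56.6% to 59.3% of probes above background in controls, 63.6% to 69.5% in TBI and 58.7% to 60.5% in HSC + TBI. Controls lay on 1 slide and TBI rats on another, so that slide and group cannot be told apart, and the HSC + TBI rats lay on 2 further slides. All 8 hepatocyte markers examined, among them albumin and transthyretin, were above background on every array of this tissue labelled liver.

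None of the 10 enzymes was called in any of the 3 comparisons. In TBI against control, 0 of 10 were called beside 7.25% of all tested probes, and 1 of 10, Cat, passed the adjusted p alone beside 8.09%. In HSC + TBI against control, 0 of 10 were called beside 3.23% of probes, and 0 of 10 passed the adjusted p alone beside 3.42%. For HSC + TBI against TBI, the corresponding shares of all probes were 0.796% and 0.8%, and again 0 of 10 enzymes passed either. At an unadjusted limma p under 0.05 the counts were 2 of 10 beside 25.5%, 2 of 10 beside 19.6% and 0 of 10 beside 16.3%, in the same order. Both times the 2 were Sod3 and Cat. By the F-test over the 3 groups, 0 of 10 passed the adjusted threshold beside 6.89% of all probes, and 2 of 10, again Sod3 and Cat, passed unadjusted beside 26.1%. These counts are close to, or below, what the array as a whole showed.

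**Figure D1:**
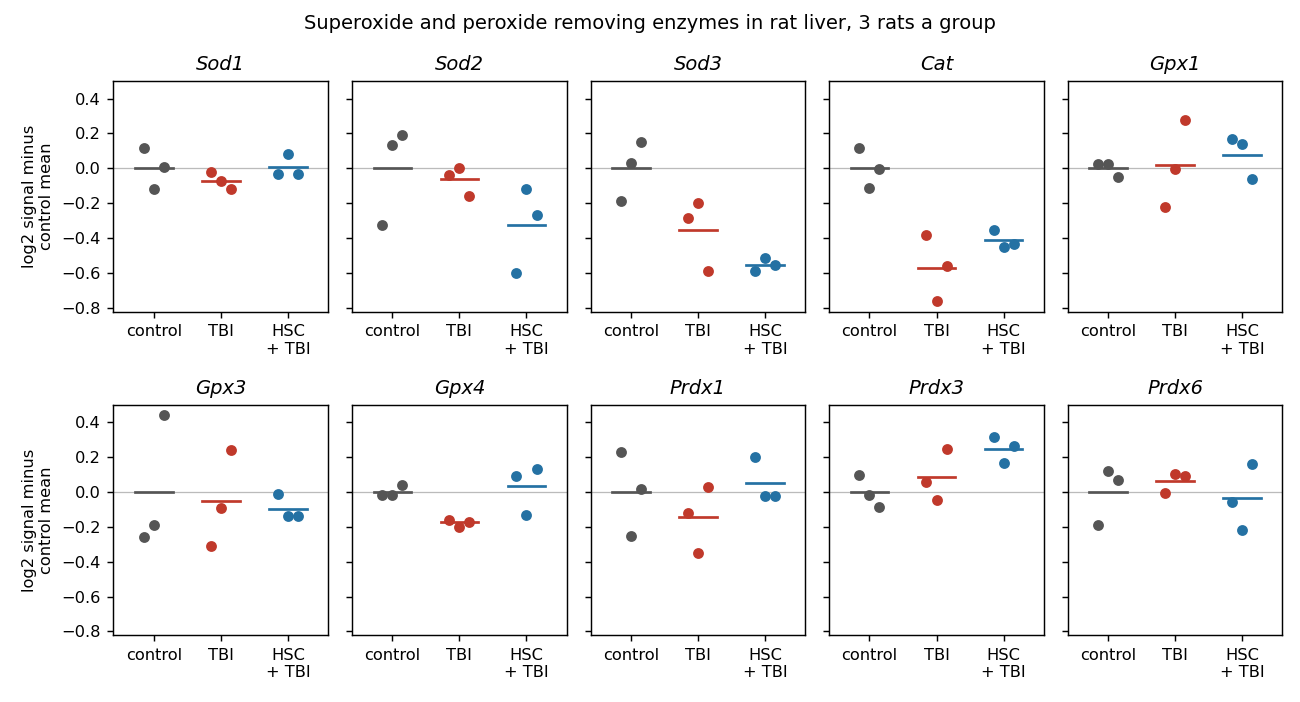
Log2 signal of each of the 10 enzymes minus its control mean (y axis) in control, TBI and HSC + TBI livers (x axis). Points are single rats and bars are group means of 3 rats; Sod3 and Cat are the 2 genes whose 6 irradiated rats all lie below the 3 controls.

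Catalase was the enzyme with the clearest difference. Its log2 signal was 13.44, 13.21 and 13.32 in the control rats, 12.94, 12.56 and 12.76 after TBI, and 12.97, 12.87 and 12.89 after HSC + TBI. Every irradiated rat was below every control, whether or not HSC had been given. After TBI, Cat stood at -32.7% relative to controls, a log2 difference of -0.57 (SE 0.13, 95% interval -0.86 to -0.28, limma adjusted p = 0.0319). This passed the adjusted p and lay just under the required 1.5-fold, at 1.49-fold. After HSC + TBI the difference from control was -0.41 (95% interval -0.70 to -0.12, limma adjusted p = 0.126). It was -0.25 under a 75th percentile scaling (adjusted p = 0.362), and its adjusted p was 0.0441 with normexp and 0.0119 with slide as a random block. The slide block cannot correct for slide, and its negative correlation of -0.33 lowers the errors, so its p-value is not read. Between the irradiated groups the difference was 0.16 (-0.13 to 0.45, limma adjusted p = 0.578). The F-test over the 3 groups gave an adjusted p of 0.061 for Cat, the lowest of the 10. When single rats were left out in turn, the TBI difference ran from -0.66 to -0.48 and its adjusted p from 0.0256 to 0.0934. The p stayed under 0.05 without TBI rat 1 or without TBI rat 3, and was over 0.05 without any of the other 7. It was also over 0.05 under a 75th percentile scaling (0.0629), in a fit of the compared groups alone (0.0881) and by the methods' t-test after adjustment (0.147). In whole liver, fewer cells that hold catalase and less catalase RNA per cell cannot be told apart.

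The 5 named genes whose levels lay closest to those of Cat over the 9 rats were Hadh, Lhx2, Arf2, Cpq and Pnisr, out of 9603 compared. Likeness was the mean absolute difference between the profiles after each gene was centred on its own mean, and it was 0.055 for Hadh and 0.0665 for Pnisr. Hadh encodes a mitochondrial enzyme of fatty acid beta-oxidation. Its log2 signal averaged 16.04 in controls, 15.59 after TBI and 15.68 after HSC + TBI. Cpq, a secreted carboxypeptidase, averaged 14.22, 13.57 and 13.71 in the same order. Lhx2, a LIM homeobox transcription factor, averaged 7.81, 7.18 and 7.49. Arf2, a small GTPase of vesicle traffic, averaged 4.16, 3.55 and 3.82 and was not well above background in 1 of the 3 HSC + TBI rats. The list names genes by likeness of level only.

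**Figure D2:**
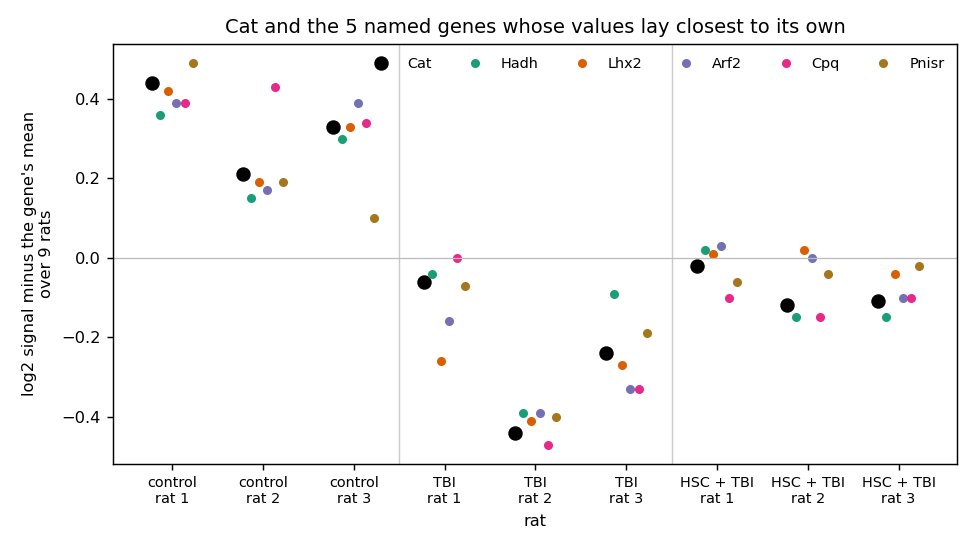
Log2 signal minus the gene's mean over 9 rats (y axis) for Cat and the 5 genes closest to it, in each rat (x axis). Cat was 0.21 to 0.44 above its mean in controls, 0.06 to 0.44 below it after TBI and 0.02 to 0.12 below it after HSC + TBI.

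The stretch just before the start of the Cat gene is printed first below because Cat alone passed the adjusted p, and those of Sod2 and Prdx1 because they alone among the enzymes with a window held the core of the antioxidant response element, TGACNNNGC, to which Nrf2 is known to bind. Each is 250 bases of the RefSeq reference, assembly GRCr8, 5′ to 3′ on the gene's own strand, and ends at the base before the start. Capitals mark matches on either strand to that core, to the GC box GGGCGG, to the CCAAT box CCAAT and to the TATA box TATAAA.
Cat, chr3:110329527-110329776, minus strand: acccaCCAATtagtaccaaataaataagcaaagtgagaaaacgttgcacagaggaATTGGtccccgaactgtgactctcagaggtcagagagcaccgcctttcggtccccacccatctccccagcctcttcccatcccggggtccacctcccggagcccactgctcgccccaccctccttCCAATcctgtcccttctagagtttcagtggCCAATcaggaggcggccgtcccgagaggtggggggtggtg
Sod2, chr1:50050169-50050418, minus strand: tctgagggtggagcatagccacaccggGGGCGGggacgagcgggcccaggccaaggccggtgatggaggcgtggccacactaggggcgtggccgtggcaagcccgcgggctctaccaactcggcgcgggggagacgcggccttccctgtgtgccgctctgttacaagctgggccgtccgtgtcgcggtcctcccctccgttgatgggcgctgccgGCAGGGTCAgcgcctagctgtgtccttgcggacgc
Prdx1, chr5:135383656-135383905, plus strand: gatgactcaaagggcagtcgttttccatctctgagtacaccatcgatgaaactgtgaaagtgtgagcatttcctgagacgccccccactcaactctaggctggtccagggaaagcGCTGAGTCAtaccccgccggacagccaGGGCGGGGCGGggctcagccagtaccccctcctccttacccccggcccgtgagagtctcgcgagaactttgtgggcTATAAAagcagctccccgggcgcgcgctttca
Windows were found for 8 of the 10 genes, all but Sod3 and Prdx6. The Cat window held 4 CCAAT matches and none of the other motifs. CCAAT was present in 34.0% of 33469 windows of the same length over all genes, and in those of Sod1, Cat and Gpx4 here. GC boxes stood in 7 of the 8 enzymes' windows, every one but Cat, beside 30.5% of all windows. The enzymes' windows held 55.2% to 71.6% G or C, where the median of all windows was 51.2%. The part of that in the GC box count was not tested. An enzyme counted if any of its windows matched, and Gpx4 has several, while shares over all genes are per window. The Nrf2 core was found in 2 of the 8 beside 10.1%, and the TATA box in 2 of the 8, Sod1 and Prdx1, beside 12.9%. In Prdx1 the core lay at bases -135 to -127 counted from the start, and in Sod2 at -35 to -27. A match is a run of letters and not a measured binding site.

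Among the dismutases, Sod3, the secreted enzyme bound to matrix outside cells, was lower in both irradiated groups without passing the test. Its log2 signal was 11.76, 11.98 and 12.10 in controls, 11.66, 11.75 and 11.36 after TBI, and 11.36, 11.43 and 11.39 after HSC + TBI. Every irradiated rat lay below the lowest control, although TBI rat 2 missed it by only the last digit shown. The difference from control was -0.55 after HSC + TBI (95% interval -0.88 to -0.23, limma adjusted p = 0.0742) and -0.36 after TBI (-0.68 to -0.04, adjusted p = 0.159). Between HSC + TBI and TBI it was -0.20 (-0.52 to 0.12, adjusted p = 0.526). The HSC + TBI difference passed the adjusted p under normexp background correction (0.0428) and without TBI rat 3 (0.0439). With slide as a random block the adjusted p was 0.00473, which is not read, because the negative slide correlation lowers the errors. Leaving out other rats gave up to 0.222. F-test adjusted p for Sod3 was 0.0906.

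Sod1, the copper and zinc enzyme of the cytosol, was the steadiest of the 3 after quantile normalization. Its brighter probe read 17.05, 16.81 and 16.94 in controls, 16.91, 16.86 and 16.81 after TBI, and 16.90, 17.01 and 16.90 after HSC + TBI. All 9 values lay within 0.24, and those of its second probe within 0.14. Under a 75th percentile scaling the brighter probe was at 0.19 in HSC + TBI against control (limma adjusted p = 0.539). It was at 0.20 in HSC + TBI against TBI (adjusted p = 0.553). The TBI difference was -0.07 (95% interval -0.32 to 0.17) by the brighter probe and 0.04 (-0.18 to 0.26) by the other, which differ in sign and are both smaller than their errors. Sod2, the manganese enzyme of the mitochondrial matrix, read 9.31, 9.77 and 9.83 in controls, 9.60, 9.64 and 9.48 after TBI and 9.04, 9.52 and 9.37 after HSC + TBI. The TBI values lay inside the control range. HSC + TBI minus control was -0.33 for Sod2 (-0.73 to 0.08, limma adjusted p = 0.355), with the groups overlapping through control rat 1.

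The glutathione peroxidases Gpx1, Gpx3 and Gpx4 are selenoenzymes. Gpx1, the cytosolic and mitochondrial form, read 16.95, 16.95 and 16.87 in controls, 16.70, 16.92 and 17.20 after TBI, and 17.09, 17.06 and 16.86 after HSC + TBI. The spread was widest among the TBI rats (SD 0.25), and the TBI difference was 0.02 (95% interval -0.31 to 0.35) by this probe and -0.03 (-0.32 to 0.27) by the second. Gpx3, the plasma enzyme made chiefly by the kidney, read 5.70, 5.77 and 6.40 in controls, 5.65, 5.87 and 6.20 after TBI and 5.95, 5.82 and 5.82 after HSC + TBI. Its 3 differences ran from -0.10 to -0.05, with intervals reaching from -0.58 to 0.43.

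Gpx4, which reduces lipid peroxides inside membranes, was, by the brightest probe of each enzyme, the one in which the irradiated groups did not overlap. The second Sod1 probe also separated them, in the lower direction. The log2 signal of Gpx4 was 13.71, 13.71 and 13.77 in controls, 13.57, 13.53 and 13.56 after TBI and 13.82, 13.60 and 13.86 after HSC + TBI. The TBI rats lay below all rats of the other groups. The sizes were small, with -0.17 for TBI against control (95% interval -0.42 to 0.07, limma adjusted p = 0.35) and 0.21 for HSC + TBI against TBI (-0.04 to 0.45, adjusted p = 0.391). By the methods' t-test, which does not share the spread over probes, the adjusted p was 0.0728 and 0.421 in the same order. The exact two-sided permutation p was 0.1, the smallest it can give, in both. The SDs within the control, TBI and HSC + TBI groups were 0.03, 0.02 and 0.14. HSC + TBI against control was 0.03 (-0.21 to 0.28) for Gpx4.

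Peroxiredoxins draw their electrons from thioredoxin, apart from Prdx6, which uses glutathione. Prdx1, the abundant cytosolic form, read 14.33, 13.85 and 14.12 in controls, 13.98, 13.75 and 14.13 after TBI and 14.30, 14.08 and 14.08 after HSC + TBI, and all groups overlapped. Prdx3, the mitochondrial form, read 10.95, 10.84 and 10.77 in controls, 10.91, 10.81 and 11.10 after TBI and 11.17, 11.02 and 11.12 after HSC + TBI. All 3 HSC + TBI rats lay above all 3 controls for Prdx3, with a difference of 0.25 (95% interval -0.02 to 0.52, limma adjusted p = 0.289). Prdx6 read 12.77, 13.08 and 13.03 in controls, 12.95, 13.06 and 13.05 after TBI and 12.90, 12.74 and 13.12 after HSC + TBI. Its 3 differences were between -0.10 and 0.06, and Prdx1's were between -0.15 and 0.20.

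Counted by groups that do not overlap, TBI and control separated for 3 of 10 enzymes (Sod3, Cat and Gpx4, all lower) beside 28.9% of all probes. HSC + TBI and control separated for 3 of 10 (Sod3 and Cat lower, Prdx3 higher) beside 31.7%, and HSC + TBI and TBI for 1 of 10, Gpx4, beside 21.4%. These counts use the brightest probe of each enzyme, and the second Sod1 probe, which is not in them, was lower in HSC + TBI than in TBI without overlap (-0.09, 95% interval -0.31 to 0.13). The enzymes' share was thus near that of the array in each comparison. Their median log2 difference was -0.07 in TBI against control, where that of all tested probes was -0.01, and the median absolute difference was 0.078 beside 0.24. In HSC + TBI against TBI the medians were 0.07 beside 0.06, and the median absolute differences 0.16 beside 0.20. All 10 enzymes were well above background in all 9 rats, while a tested probe needed this in only 1 group. The medians are thus not matched for brightness.

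Each 95% interval covers 1 enzyme in 1 comparison and rests on the spread between rats. It holds no difference between slides, which cannot be told apart from groups, so it does not bound what was missed. In TBI against control the 95% interval lay wholly within 1.5-fold in either direction for 8 of 10 enzymes, the exceptions being Sod3 and Cat. In HSC + TBI against control it did so for 7, with Sod2, Sod3 and Cat reaching further, and in HSC + TBI against TBI for 9, with Sod2 as the exception. A smaller change in any of them may have gone undetected with 3 rats a group, and transcript levels say nothing of enzyme activity.

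**Figure D3:**
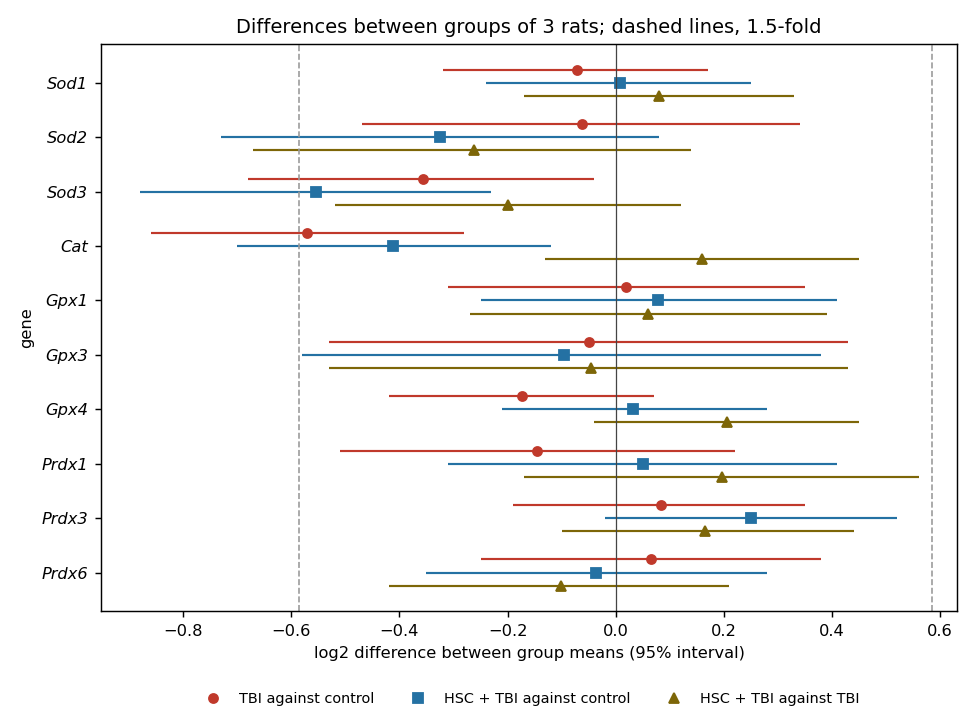
Log2 difference between group means (x axis) for each of the 10 enzymes (y axis) in the 3 comparisons, with 95% intervals from limma. Cat and Sod3 have intervals below 0 against control in both irradiated groups, and in HSC + TBI against TBI all 10 intervals include 0.

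The other peroxide-reducing genes gave 0 calls among 7 tested in each comparison, beside 7.25%, 3.23% and 0.796% of all probes. A count of 0 is near that of the array. Gpx5 was too dim to test, and 5 of the 7 were well above background in all controls. Gpx2, a glutathione peroxidase best known from the gut lining, read 4.56, 2.70 and 4.30 in controls, 4.49, 6.32 and 6.77 after TBI and 5.11, 5.62 and 6.17 after HSC + TBI. It was well above background in only 2 of the 3 controls and entered the test through the irradiated rats, so no test is read from it. Prdx4, the peroxiredoxin of the endoplasmic reticulum, read 12.63, 12.41 and 12.53 in controls and 12.05, 11.52 and 12.31 after TBI, and 12.54, 12.32 and 12.42 after HSC + TBI. That gave -0.56 for TBI against control (adjusted p = 0.111) and 0.47 for HSC + TBI against TBI (adjusted p = 0.28), neither of which passed. Gpx6 was well above background in the 3 TBI rats and in no other, at 4.31, 4.04 and 3.81, and was tested because of those rats, so its level is given without a test.

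The reducing partners are genes around the supply of electrons and cofactors to these enzymes. Of 16 tested reducing partners, 1 was called higher and 1 lower in TBI against control, 1 higher in HSC + TBI against control, and 0 in HSC + TBI against TBI. Beside the 7.25%, 3.23% and 0.796% of all probes, such counts are close to those of the array. Sesn2, a sestrin known to respond to p53 and to other stress signals, rose in both irradiated groups. Its log2 signal was 6.55, 6.51 and 6.71 in controls, 7.35, 7.88 and 7.49 after TBI and 7.79, 7.47 and 7.23 after HSC + TBI, with no overlap between irradiated and control rats. The rise was 0.98 after TBI (SE 0.19, limma adjusted p = 0.0168) and 0.91 after HSC + TBI (adjusted p = 0.0367). Srxn1, the sulfiredoxin that reduces over-oxidized peroxiredoxins, is named after its values were seen. It was higher by 0.49 after TBI (limma adjusted p = 0.0441, under 1.5-fold) and by 0.43 after HSC + TBI (adjusted p = 0.0946).

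Txnrd3, a thioredoxin reductase known mainly from testis, fell after TBI. It read 5.45, 5.35 and 5.69 in controls, 4.06, 4.27 and 4.86 after TBI and 5.24, 4.51 and 5.22 after HSC + TBI. The fall was -1.10 (SE 0.26, limma adjusted p = 0.0364), and HSC + TBI against TBI was 0.60 (adjusted p = 0.30). Gclm, the regulatory subunit of the enzyme that starts glutathione synthesis, averaged 4.52 in controls, 2.27 after TBI and 3.65 after HSC + TBI. It was well above background in 3 control rats but only 1 TBI rat and 1 HSC + TBI rat, so the size of its difference was not measured.

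On the side of supply, 0 of 15 tested sources of superoxide and peroxide were called in any comparison. Of all probes, 7.25%, 3.23% and 0.796% were called in the 3 comparisons, so a count of 0 is near that of the array. Subunits of the phagocyte NADPH oxidase, which makes superoxide, were lower in HSC + TBI than in TBI livers without passing. Ncf1 read 7.26, 8.24 and 7.81 in controls, 7.26, 8.77 and 8.53 after TBI and 6.51, 6.70 and 6.66 after HSC + TBI, with the HSC + TBI rats below all others. Its difference from TBI was -1.57 (95% interval -2.45 to -0.68, limma adjusted p = 0.114). Cybb, the catalytic subunit, gave -1.31 (adjusted p = 0.206). Cyba and Ncf4, named after their values were seen, gave -0.96 and -1.51 (adjusted p = 0.184 and 0.136). Nox4, an NADPH oxidase of non-phagocytic cells that makes hydrogen peroxide, averaged 7.03 in controls, 5.05 after TBI and 5.47 after HSC + TBI, with -1.98 for TBI against control (SE 0.70, adjusted p = 0.123).

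Leukocyte and macrophage markers moved with these oxidase genes. All 7 tested markers were lower in HSC + TBI than in TBI, with a median of -1.10. Of the 7, 0 passed the adjusted p, beside 0.8% of all probes. Their summed signal ran from 47900 to 68100 in controls, 46900 to 89300 after TBI and 32600 to 35600 after HSC + TBI, while the T cell marker Cd3e was not well above background on any array. The sum is weighted towards Clec4f, the brightest of the 7. Its log2 signal averaged 15.47 in controls, 15.58 after TBI and 14.72 after HSC + TBI. Itgam, an integrin of neutrophils and monocytes, gave -2.29 (limma adjusted p = 0.0949), Lyz2 -1.39 (adjusted p = 0.12) and the macrophage receptor Marco -1.21 (adjusted p = 0.114). Their part in the oxidase values was not tested. In TBI against control the median of the 7 markers was 0.46, and 0 of 7 were called beside 7.25% of all probes.

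The genes that supply glutathione peroxidases with selenium gave 0 calls among 6 tested in each comparison, beside 7.25%, 3.23% and 0.796% of all probes. Sephs2, which makes the selenium donor, averaged 10.63 in controls, 11.22 after TBI and 11.11 after HSC + TBI, with 0.59 for TBI against control (SE 0.25, limma adjusted p = 0.177). Sephs1, its relative, gave 0.08, and Scly, which recovers selenium from selenocysteine, gave -0.15 in the same comparison.

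Red cells carry much catalase, Gpx1 and peroxiredoxin, so that blood left in the liver was read beside these values. The summed signal of 5 tested red cell markers ran from 2050 to 5020 in controls, 1390 to 2790 after TBI and 1090 to 1910 after HSC + TBI. Beta globin (Hbb), the brightest of the 5, to which that sum is weighted, averaged 11.32 in controls, 10.02 after TBI and 9.73 after HSC + TBI. The TBI difference of -1.30 (limma adjusted p = 0.122) did not pass, and control and TBI rats overlapped. Alas2, the erythroid enzyme of heme synthesis, and Ahsp, a chaperone of alpha globin, are named after their values were seen. They gave -1.15 and -1.06 after TBI (adjusted p = 0.225 and 0.149) and -1.96 and -0.98 after HSC + TBI (adjusted p = 0.0924 and 0.233). The band 3 gene Slc4a1 was at 1.53 after TBI (adjusted p = 0.112). Over the 5 markers, 3 were lower and 2 higher in TBI against control, with a median of -1.06. The second of the higher ones, Epb42, met the call rule, but it was well above background in only 1 of 3 controls. It entered the test through the irradiated rats, so its difference is not read. The count and the median of the 5 markers include it. The part of red cells in the lower catalase signal was not tested.

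Other liver cell types were checked in the same way. Hepatocyte markers gave 0 calls of 8 in each comparison, beside 7.25%, 3.23% and 0.796% of all probes. Among them Ttr was at -0.53 (limma adjusted p = 0.13), Cps1 at 0.52 (adjusted p = 0.277) and Serpina1 at 0.17 (adjusted p = 0.319) in TBI against control. Of 8 endothelial, stellate and smooth muscle markers, Lrat, the retinol-esterifying enzyme of stellate cells, was called lower after TBI (-0.63, adjusted p = 0.0237). That is 1 of 8 beside 7.25% of all probes. Lyve1, a sinusoidal endothelial receptor, was higher by 0.53 (adjusted p = 0.0469, under 1.5-fold), and the matrix gene Dcn gave 0.72 (adjusted p = 0.362). Summed hepatocyte signals ran from 1180000 to 1260000 in controls and from 1110000 to 1250000 after TBI.

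**Figure D4:**
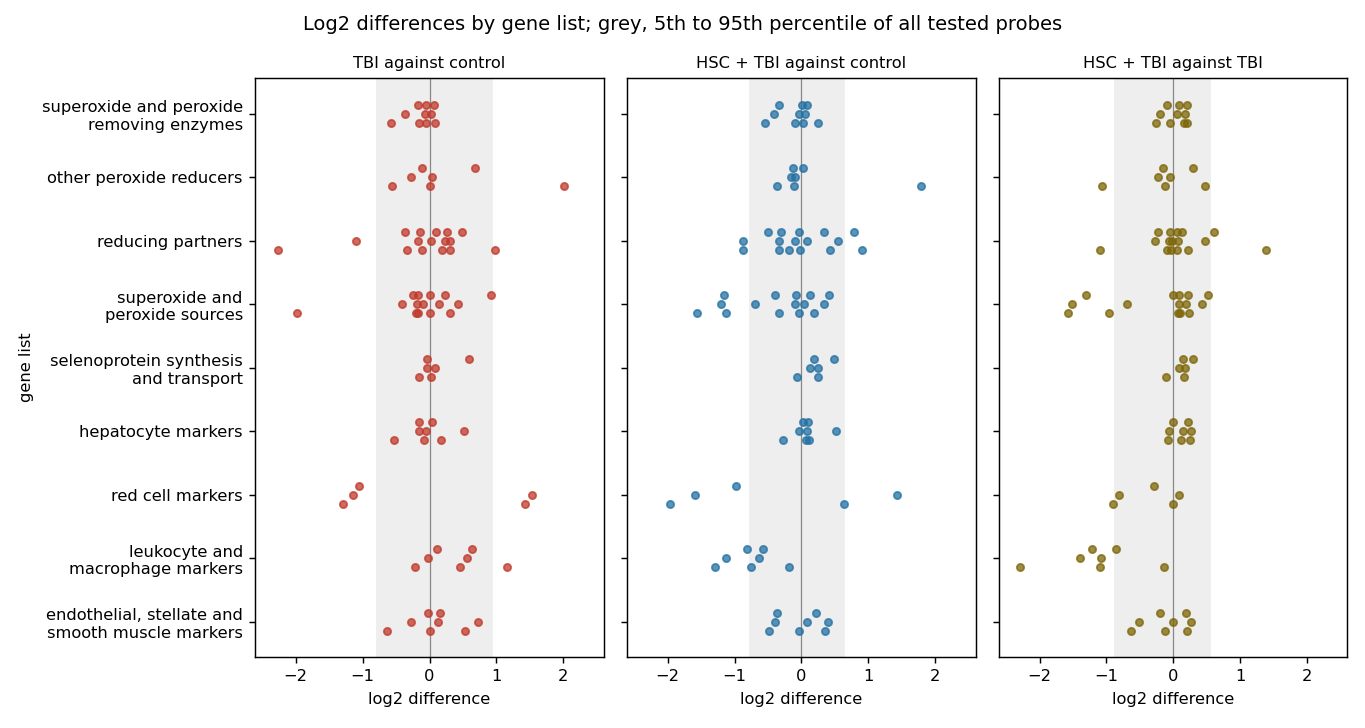
Log2 difference between group means (x axis) for every tested gene of the 10 enzymes and of 8 surrounding lists (y axis), in the 3 comparisons. Gpx2, Gpx6, Gclm and Epb42 are drawn although they were not well above background in every rat, so their positions are not read. Grey spans the 5th to 95th percentile of all tested probes, and all 10 enzymes lie inside it in each comparison.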

How the data were processed

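Liver RNA of 9 rats was hybridized to one-colour Agilent arrays, 1 per rat. Per the file headers, the authors read spot intensities with Feature Extraction 10.7.3.1, and the deposited processed-signal intensity is already corrected for background. The authors also deposited log2 values normalized by quantiles in GeneSpring, used here only as an alternative.

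Control spots and outlier spots (84 to 115 of 43379 per array) were dropped, which left 62 probe values missing, none in a member. Processed signals were floored at 1, log2-transformed and quantile-normalized (limma 3.58.1, R 4.3.3), and replicate spots were averaged, giving 41012 probes. The result differed from the authors' values by a median of 0.029 to 0.032 (log2, absolute) per array. A probe counted as above background where more than 0.5 of its spots had that flag, and 25369 probes that did so throughout 1 or more groups were tested. One limma fit (lmFit, eBayes) of 3 group means served every comparison. Depth has no meaning for arrays, and 3 rats a group limit the precision. Each limma p-value sets a difference between groups against the spread between rats, which limma shares over probes. It does not account for slides.

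Names came through RefSeq accessions (GRCr8 gene table, names and promoter windows only) for 16968 probes. A gene's probe was the brightest tested. Probe sequences were not used here, so binding to near-identical gene copies was not examined. The genes followed and all lists were chosen with earlier results of these data known. Named besides the 10 enzymes were, in each list, genes called in any comparison or among the 3 largest absolute differences in TBI against control, and the 5 genes closest to Cat. Outside this rule, Srxn1, Cyba, Ncf4, Alas2, Ahsp, Clec4f and Cd163 were named after their values were seen. Some listed genes are not reported here. Among the others, Gsr, Glrx2, Sesn1, Selenop, Pstk, Hba-a2, Stab2 and Acta2 had no named probe, and Gpx5 and Cd3e were too dim to test. The fit was tested on simulated data. Alternatives were a 75th percentile shift, normexp (offset 50), the authors' values, 2 other filters, fits of the compared groups alone, the t-test of the methods with their analysis of variance, no minimum fold, replicate and slide blocks, the mean of a gene's probes and each rat left out.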

Additional observations from a re-analysis of the deposited data

How the results depend on the processing

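The count of enzymes called stayed at 0 under every alternative in both comparisons of HSC + TBI, with control and with TBI. For TBI against control it became 1, Cat, with no minimum fold change, and ranged from 0 to 1 when single rats were left out (1, Cat, without TBI rat 1). The number passing the F-test became 1 (Cat) with normexp, 1 (Cat) by the methods' analysis of variance at an unadjusted p under 0.01, and 3 (Sod3, Cat and Gpx4) with slide as a random block, and ranged from 0 to 1 with rats left out. The slide correlation was -0.33 and rests on the only group that spans slides. Being negative, it lowers the errors of the group means, and the block cannot separate slide from group. The 3 passes with that block are therefore not read. Replicate numbers did not pair the rats (correlations -0.14 to 0.19, and 5 of 9 rats were closest to a rat of their own number), and the replicate block gave 0 calls in every comparison.

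Of 30 differences, those that changed sign under an alternative were at most 0.10 in size in the main setting, and none passed. Prdx6 in HSC + TBI against control became 0.11 with the 75th percentile shift. Normexp gave -0.02 for Gpx1 in TBI against control, -0.03 for Sod1 in HSC + TBI against control and 0 for Gpx3 in HSC + TBI against TBI. The authors' values gave -0.02 for Sod1 in HSC + TBI against control and -0.06 for Gpx1 in HSC + TBI against TBI, and the slide block 0 for Sod1 in HSC + TBI against control. With probes averaged, Gpx1 in TBI against control was 0, Sod1 in HSC + TBI against control -0.02 and Sod1 in HSC + TBI against TBI 0.

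With single rats left out, the ranges that crossed 0 were Sod2 in TBI against control -0.23 to 0.03, Gpx1 in TBI against control -0.11 to 0.14, Gpx3 in TBI against control -0.20 to 0.17, Prdx6 in TBI against control -0.03 to 0.13, Sod1 in HSC + TBI against control -0.05 to 0.07, Gpx3 in HSC + TBI against control -0.23 to 0.13, Gpx4 in HSC + TBI against control -0.02 to 0.11, Prdx1 in HSC + TBI against control -0.07 to 0.17, Prdx6 in HSC + TBI against control -0.14 to 0.05, Gpx1 in HSC + TBI against TBI -0.06 to 0.19 and Gpx3 in HSC + TBI against TBI -0.17 to 0.10. The cause of these moves was not tested. Scalings moved the median of all probes by at most 0.04. Single enzymes moved further with the 75th percentile shift in HSC + TBI against control. Sod1 went from 0.01 to 0.19, Gpx1 from 0.08 to 0.24, Gpx4 from 0.03 to 0.21 and Prdx1 from 0.05 to 0.24. All the enzymes moved upward there except Gpx3, which went from -0.10 to -0.16. Calls over all probes in HSC + TBI against TBI were 202 in the main setting and 9 with normexp, in TBI against control 1839 and 718, and in HSC + TBI against control 820 and 516. Of the 202 calls 59 were higher, of the 9 with normexp 5, and of 277 with the 75th percentile shift 38. Array signal well above background in all 9 rats limits none of the 10 enzymes, while the number of rats limits all of them.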
